A study of Mus musculus with 42 samples.

Results

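Gene expression on the western diet was compared between 5 mouse brain libraries labelled hippocampus and 5 labelled cerebellum, 10 of the 42 libraries of the study. The members were chosen by their labels alone: western diet, no NaKtide, and 1 of the 2 region labels. Per the labels, the mice of both groups ate a western diet with 42% of fat for 12 weeks, tissue was flash-frozen, and libraries were made from total RNA with a stranded mRNA kit. The other libraries carry the same 2 region labels and come from mice on chow with 11% fat (control diet), chow with NaKtide, or western diet with NaKtide, with 5 or 6 libraries in each group. NaKtide is a short peptide of the Na,K-ATPase, the sodium pump, and keeps the pump from signalling through the kinase Src, and per the labels it came from a transgene induced with doxycycline in the diet. The title of the series places the pump in adipocytes, and the labels do not name the promoter of the transgene. They also do not say whether the mice without NaKtide carried the transgene or received doxycycline, and they give no strain, sex or age. The series' own design text speaks of liver and fat in place of brain, so the region of each library rests on its own label. Nothing in the labels ties a replicate number to an animal, and p-values measure the spread between these libraries, which may be technical.

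The hippocampus and the cerebellum are among the most different parts of the brain in gene expression. The cerebellar cortex is dominated by granule cells, which carry the α6 subunit of the GABA-A receptor (Gabra6) and cerebellin 3 (Cbln3), and by Purkinje cells, its output neurons, which express Pcp2, Ppp1r17 and Car8. The hippocampus holds pyramidal neurons of the CA fields (Neurod6, Fibcd1, Spink8) and granule cells of the dentate gyrus (Prox1, C1ql2, Lct). En2 is a homeobox gene of the midbrain and cerebellum.

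Because the check of the labels turns on Gabra6 and Cbln3, their promoters are shown first, as the 300 bases around the annotated start that RefSeq gives for GRCm38.p6, on the minus strand of each chromosome and read 5′ to 3′. Capitals mark the half-site TTGGC of nuclear factor I (NFI), a family of transcription factors known to act on Gabra6 in cerebellar granule cells, on the strand shown or, as GCCAA, on the other. Both promoters matched a RefSeq entry. The first lies at chr11:42321023-42321322 and the second at chr14:55884207-55884506.
Gabra6: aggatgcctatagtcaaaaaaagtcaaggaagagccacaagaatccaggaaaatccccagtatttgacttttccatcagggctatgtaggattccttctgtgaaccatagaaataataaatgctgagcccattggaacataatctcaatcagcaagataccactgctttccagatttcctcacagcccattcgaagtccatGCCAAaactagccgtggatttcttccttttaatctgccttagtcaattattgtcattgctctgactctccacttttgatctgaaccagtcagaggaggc
Cbln3: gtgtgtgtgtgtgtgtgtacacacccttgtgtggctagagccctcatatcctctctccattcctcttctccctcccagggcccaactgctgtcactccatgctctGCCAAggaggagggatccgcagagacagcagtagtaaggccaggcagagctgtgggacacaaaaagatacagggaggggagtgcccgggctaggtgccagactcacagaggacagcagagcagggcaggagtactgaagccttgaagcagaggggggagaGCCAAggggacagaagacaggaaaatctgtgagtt
The Gabra6 window held 1 match and the Cbln3 window 2, and 46.86% of 32544 RefSeq promoters of the same length held at least 1. The E-box CANNTG, searched on both strands, was found in 72.3% of them, with 0 matches for Gabra6 and 1 for Cbln3. A match of letters is a description of the window and no measurement of binding.

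The 10 libraries held 5364756 to 8213859 counts each, with 15000 to 16024 genes at 10 counts or more and 4.68% to 7.63% of counts in the 13 mitochondrially encoded protein genes. The mean total was 6978660 ± 971200 (SD, n = 5) for the hippocampus label and 6554090 ± 764600 for the cerebellum label (two-sided exact permutation test over 252 splits, p = 0.468, adjusted p = 0.786 over 3 measures). The other measures, genes at 10 counts or more (15611.6 ± 240.4 against 15555.2 ± 367) and mitochondrial percent (5.89 ± 0.88 against 6.20 ± 1.19), gave p = 0.786 and p = 0.643 by the same exact test, whose smallest possible p is 0.00794. Levels are given as CPM, counts scaled to library size, and they carry counting error on top of the spread between libraries. Where 2 means ± SD are set against each other, the hippocampus label comes first and the cerebellum label second, with n = 5 each unless stated.

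Cerebellar transcripts were present in 1 library labelled cerebellum and, at a lower level, in 1 labelled hippocampus. Gabra6 stood at 0.290, 0, 211, 0 and 0.133 CPM in cerebellum western 1 to 5 and 0.415, 0, 0.236, 23.6 and 0.807 in hippocampus western 1 to 5. Cbln3 stood at 1.31, 0.722, 994, 0.846 and 1.19 CPM in cerebellum western 1 to 5 and 1.80, 1.17, 3.31, 92.9 and 3.23 in hippocampus western 1 to 5. Cerebellum western 3 was thus high for both genes and the other 4 libraries with that label were near 0, within or below the range of 4 libraries labelled hippocampus. In these markers 4 of the 5 libraries went against the label cerebellum, and the groups are called here by their labels only. Fat2, a giant cadherin of granule cells, reached 557 CPM in cerebellum western 3 and 40.2 in hippocampus western 4, against at most 2.89 in the other 8. The Purkinje cell genes followed the same pattern. Pcp2, a modulator of G protein signalling, stood at 634 CPM in cerebellum western 3, 71.3 in hippocampus western 4 and 0.265 to 2.77 in the rest. Ppp1r17, a phosphatase inhibitor, stood at 266 and 29.5 CPM in these 2 libraries and at 0.236 to 1.52 in the rest. Car8, a carbonic anhydrase-related protein that binds the IP3 receptor, stood at 765 and 105 against 4.11 to 9.16 CPM. Over these 6 genes, hippocampus western 4 held 7.23% to 13.7% of the level in cerebellum western 3. En2 was at 52.1 CPM in cerebellum western 3, 9.02 in cerebellum western 4 and 6.73 in hippocampus western 4, and at 0.726 to 3.55 in the other 7.

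The marker differences between the labels were therefore set by single libraries. The log2 difference, hippocampus minus cerebellum label, was -3.04 for Gabra6, -3.27 for Cbln3, -3.64 for Fat2, -3.02 for Pcp2, -2.99 for Ppp1r17 and -2.54 for Car8. None passed the test (edgeR quasi-likelihood test, Benjamini-Hochberg adjusted p = 0.193 to 0.256). Without cerebellum western 3 all 6 had the opposite sign, at 5.39, 4.34, 3.38, 4.52, 2.71 and 2.09 in the same order. With hippocampus western 4 left out as well, values were 1.24 for Cbln3, 0.17 for Fat2, 1.19 for Pcp2 and 0.23 for Car8, with adjusted p from 0.800 to 0.984. Gabra6 was not tested in that fit, so its sign there is not known, and Ppp1r17 had no positive value. Gabra6 lies at chr11:42306437-42321072 and Cbln3 at chr14:55878913-55884392 in GRCm38.

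**Figure D1:**
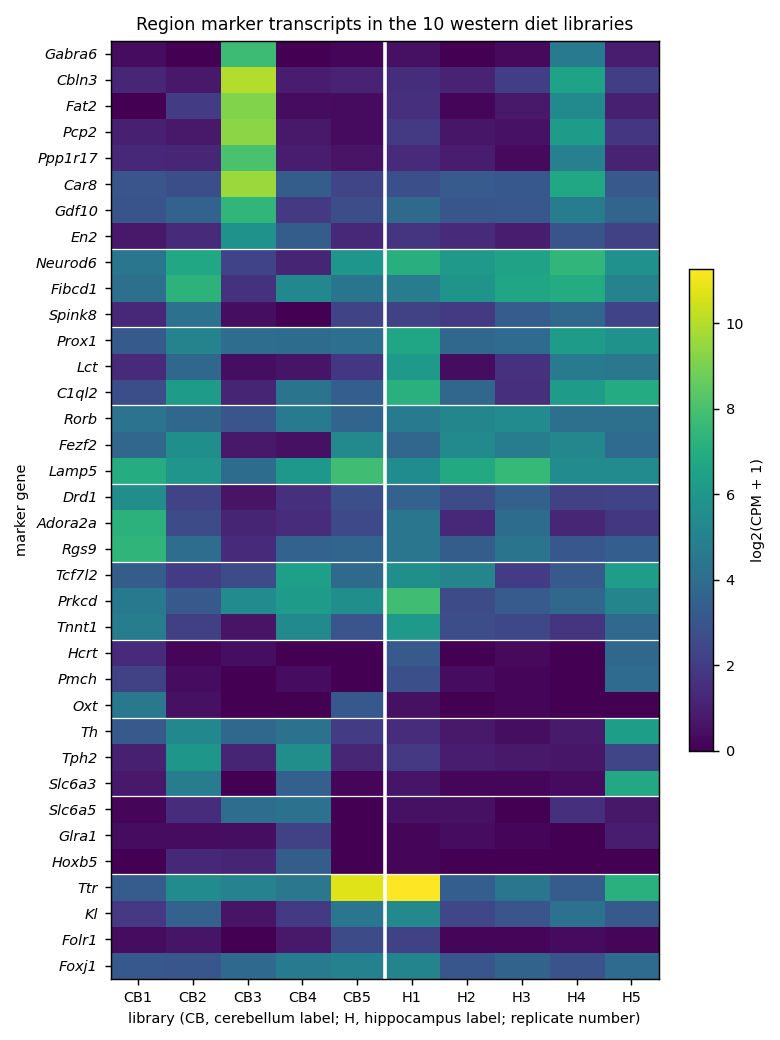
Levels of region marker genes (rows, grouped by white lines into cerebellum, hippocampal pyramidal, dentate, neocortex, striatum, thalamus, hypothalamus, monoamine, brainstem and choroid plexus or ependymal genes) in the 10 western diet libraries (columns), as log2(CPM + 1). The cerebellar block is bright in CB3 and, more weakly, in H4, and dark in the other 8 columns.

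The other libraries labelled cerebellum held transcripts of other brain regions. The 20 forebrain transcription factors of the list summed to 620.4, 1026, 471, 116 and 843 CPM in cerebellum western 1 to 5 and to 1069, 1069.9, 1301, 1304 and 581 CPM in hippocampus western 1 to 5. By this sum cerebellum western 1, 2 and 5 lay within the range of the hippocampus label, and cerebellum western 4 was the lowest. Cerebellum western 1 was high in striatal genes: the adenosine receptor gene Adora2a stood at 150.1 CPM against 1.22 to 20.6 in the other 9, Rgs9, a regulator of G protein signalling, at 166 against 1.57 to 20.6, and the dopamine receptor gene Drd1 at 46.9 against 0.525 to 10.5. The summed level of 14 striatal markers was 3672 CPM there and 394 to 896 CPM elsewhere, and the hypothalamic neuropeptide gene Oxt was at 22.1 CPM. In cerebellum western 2, Fibcd1, a marker of CA1 pyramidal neurons, was at 157 CPM and Neurod6, a transcription factor of pyramidal neurons, at 103, next to 61.8 CPM of Tph2, the enzyme of serotonin synthesis in neurons. Cerebellum western 4 held 18.2 CPM of Slc6a5, the glycine transporter of inhibitory hindbrain and spinal neurons, 46.8 of Tph2 and 80.4 of Tcf7l2, a transcription factor abundant in thalamus. Cerebellum western 5 held 228 CPM of Lamp5, enriched in cortex, and 1713 of Ttr, the transthyretin transcript of the choroid plexus.

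Hippocampal transcripts were present in all 5 libraries labelled hippocampus, at levels that varied widely. Neurod6 stood at 20.5, 103, 3.85, 1.27 and 59.4 CPM in cerebellum western 1 to 5 and 137, 67.2, 89.3, 171 and 51.2 in hippocampus western 1 to 5. Fibcd1 stood at 16.99, 157, 2.1, 37.4 and 19.7 CPM in cerebellum western 1 to 5 and 25.5, 55.9, 103, 121 and 32.1 in hippocampus western 1 to 5. For Neurod6 cerebellum western 2 and 5 lay inside the range of the hippocampus label, and for Fibcd1 cerebellum western 2 was the highest of all 10. Prox1, the transcription factor that sets dentate granule cell identity, stood at 8.13, 31.8, 15.4, 14.8 and 16.6 CPM in cerebellum western 1 to 5 and 101, 12.9, 14.4, 74.97 and 53.4 in hippocampus western 1 to 5. It was high in hippocampus western 1, 4 and 5, while hippocampus western 2 and 3 lay within the range of the cerebellum label. C1ql2, a secreted synaptic organizer of dentate mossy fibres, was at 5.52, 73.5, 1.22, 19.2 and 9.41 CPM in cerebellum western 1 to 5 and 143, 12.3, 1.89, 73.6 and 120.4 in hippocampus western 1 to 5. Hippocampus western 1 also held 2486 CPM of Ttr and 222 of Prkcd, a kinase of thalamic neurons, and hippocampus western 5 held 111 CPM of Slc6a3, the dopamine transporter, and 77.98 of Th, the enzyme that makes its transmitter. In bulk tissue fewer cells of a type and less RNA per cell cannot be told apart.

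As log2 differences between the labels, Neurod6 gave 1.45 (SE 0.86), Fibcd1 0.53 (SE 0.77) and Spink8, a further CA1 marker, 0.44 (SE 0.97), with adjusted p by edgeR of 0.298, 0.700 and 0.808. Of the dentate markers, Prox1 gave 1.56 (SE 0.54, adjusted p = 0.142), Lct, the lactase gene, 2.65 (SE 1.18, adjusted p = 0.187) and C1ql2 1.68 (SE 1.24, adjusted p = 0.403). The 2 sets of libraries overlapped for each of these 6 genes.

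Libraries were also compared by their distance, the root mean square of log2 differences over the genes tested. The mean distance was 0.636 within the hippocampus label (10 pairs), 0.857 within the cerebellum label (10 pairs) and 0.815 between the labels (25 pairs). Without cerebellum western 3, an alternative added once the data had been seen, the cerebellum label averaged 0.715 (6 pairs) and pairs of different labels 0.731 (20 pairs), so the order of these 2 means turned with that library. The nearest of all other libraries of the study to cerebellum western 2 was hippocampus western 5 (0.540), and to cerebellum western 1 and 5 it was hippocampus control 3 (0.468) and hippocampus control 2 (0.484). Cerebellum western 4 was nearest to a library of its own label, cerebellum western NaKtide 2 (0.581). Hippocampus western 3, 4 and 5 were each nearest to a library labelled cerebellum, namely cerebellum western NaKtide 4 (0.458), cerebellum control NaKtide 5 (0.499) and cerebellum control NaKtide 1 (0.487). Cerebellum western 3 stood farthest from the rest, with cerebellum western NaKtide 2 as its nearest library at 0.924. Hippocampus western 2 and 3 were nearest to each other among the 10 (0.459). No 2 of the 10 agreed within sampling noise: the closest pair, hippocampus western 2 and 3, had a mean chi-square of 7.73 per gene.

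The comparison of the labels on the western diet called no gene. Of 17088 genes tested, 0 (0%) passed an adjusted p under 0.05 by edgeR and the smallest adjusted p was 0.125, while 3866 genes (22.6%) had an unadjusted p under 0.05, 1534 (8.98%) with a higher and 2332 (13.6%) with a lower level in the hippocampus label. DESeq2 called 165 genes, 124 higher and 41 lower. Over all genes the median log2 difference was -0.07, with 7451 positive and 9637 negative values. The 5 values of one label lay entirely above or below those of the other for 730 genes (4.27%), 382 (2.24%) with the hippocampus label above and 348 (2.04%) with it below. Leaving out cerebellum western 2 gave 9 calls and leaving out hippocampus western 5 gave 17, and leaving out each of the other 8 gave 0.

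The 10 genes with the smallest p are given next, with adjusted p = 0.125 for all of them by edgeR. Skida1, a gene of the SKI and DACH domain family (chr2:18040676-18049051), stood at 4.07, 5.77, 4.20, 5.36 and 5.30 CPM in cerebellum western 1 to 5 and 12.05, 8.49, 9.09, 12.7 and 9.53 in hippocampus western 1 to 5. Its means were 10.4 ± 1.88 against 4.94 ± 0.760 CPM, a log2 difference of 1.07 (SE 0.21), and the labels did not overlap. Stxbp6, or amisyn, which binds SNARE proteins of vesicle fusion and is also a dentate marker (chr12:44852484-45074709), stood at 28.02, 36.7, 8.05, 44.97 and 28.9 CPM in cerebellum western 1 to 5 and 84.6, 72.3, 74.6, 71.9 and 89.3 in hippocampus western 1 to 5. Every library of the hippocampus label lay above every library of the cerebellum label, and cerebellum western 3 was the lowest, with a log2 difference of 1.42 (SE 0.31). Fnip1, a partner of folliculin in nutrient signalling at the lysosome (chr11:54438199-54518235), stood at 8.86, 8.95, 10.7, 8.60 and 12.2 CPM in cerebellum western 1 to 5 and 17.03, 30.9, 28.9, 26.8 and 14.4 in hippocampus western 1 to 5. Hippocampus western 1 and 5 lay nearest to the cerebellum label, and the log2 difference was 1.26 (SE 0.30). Thoc2, a subunit of the THO complex that couples transcription to mRNA export (chrX:41794991-41920674), stood at 4.94, 9.24, 8.92, 9.59 and 5.83 CPM in cerebellum western 1 to 5 and 16.3, 22.1, 19.01, 20.4 and 10.98 in hippocampus western 1 to 5. Its log2 difference was 1.21 (SE 0.27), again with hippocampus western 5 lowest of its label. Rnf19a, an E3 ubiquitin ligase (chr15:36239933-36283147), had means of 34.7 ± 7.26 against 19.99 ± 3.34 CPM and a log2 difference of 0.79 (SE 0.18), with no overlap.

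The labels overlapped for 2 of the 10. Xkr4, of a family of phospholipid scramblases (chr1:3205901-3671498), stood at 1.16, 5.05, 1.92, 3.52 and 2.52 CPM in cerebellum western 1 to 5 and 5.82, 15.5, 15.6, 16.6 and 3.87 in hippocampus western 1 to 5. The values of hippocampus western 2, 3 and 4 were high and those of 1 and 5 close to the cerebellum label, with a log2 difference of 2.01 (SE 0.44). Gpr63, an orphan G protein-coupled receptor (chr4:24966407-25009233), stood at 0.290, 0.144, 0.525, 0.423 and 0 CPM in cerebellum western 1 to 5 and 1.94, 2.49, 2.83, 3.79 and 0.484 in hippocampus western 1 to 5. These are a few counts per library in the cerebellum label, and the log2 difference of 3.04 (SE 0.71) has a wide error.

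Levels were lower in the hippocampus label for the remaining 3. Spag7, a sperm-associated antigen gene (chr11:70663771-70669416), stood at 84.9, 68.7, 89.6, 61.05 and 64.3 CPM in cerebellum western 1 to 5 and 58.3, 49.2, 42.2, 43.4 and 56.5 in hippocampus western 1 to 5. There was no overlap, and the log2 difference was -0.56 (SE 0.11). Wdr4, the partner of the methyltransferase Mettl1 for tRNA (chr17:31494322-31519980), stood at 19.2, 21.1, 32.5, 20.7 and 21.2 CPM in cerebellum western 1 to 5 and 14.3, 13.5, 15.9, 16.1 and 16.1 in hippocampus western 1 to 5. Cerebellum western 3 was the highest library and the other 4 of its label lay close together, still above every library of the hippocampus label, with a log2 difference of -0.59 (SE 0.13). Zdhhc18, a palmitoyltransferase (chr4:133605299-133650154), had means of 30.6 ± 3.25 against 47.9 ± 10.4 CPM and a log2 difference of -0.65 (SE 0.15), with no overlap. DESeq2 passed 9 of the 10, all but Gpr63, with adjusted p from 0.00349 (Skida1) to 0.0273 (Wdr4). Without hippocampus western 5, edgeR passed Skida1, Xkr4 and Thoc2 (adjusted p = 0.0387 each) and Spag7, Gpr63 and Fnip1 (0.0429 each), and without cerebellum western 2 it passed Skida1, Spag7 and Xkr4 (0.0482 each).

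**Figure D2:**
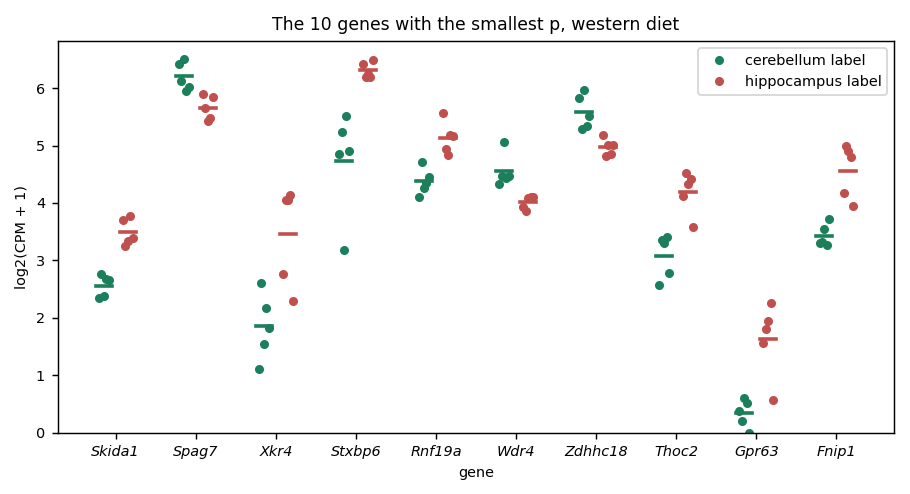
The 10 genes with the smallest p (x axis) and their level as log2(CPM + 1) (y axis), with 1 point per library, green for the cerebellum and red for the hippocampus label, and a line at each mean. The colours separate for 8 genes and overlap for Xkr4 and Gpr63.

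Gene lists were described by the number of members past an unadjusted p of 0.05, to be read against 8.98% of all genes on the higher and 13.6% on the lower side, since no member of any list passed the adjusted test (0%). Of 11 dentate granule cell markers, 8 were past that level with a higher value in the hippocampus label and 0 with a lower one, with a median log2 difference of 1.56 against -0.07 for all genes. Their summed level was 92.9 to 238.9 CPM in the cerebellum label and 190.3 to 592.1 in the hippocampus label, so the sums overlapped through hippocampus western 2 and 3. C1ql3, a synaptic organizer related to C1ql2, stood at 14.2, 29.2, 1.40, 3.38 and 17.9 CPM in cerebellum western 1 to 5 and 42.5, 42.7, 35.8, 50.4 and 34.4 in hippocampus western 1 to 5. It and Stxbp6 were the 2 of 11 members without overlap between the labels, against 2.24% of all genes with the hippocampus label above. Dsp, or desmoplakin, a dentate marker, stood at 0, 9.81, 0.175, 0.282 and 2.25 CPM in cerebellum western 1 to 5 and 67.7, 0.293, 0.827, 32.2 and 26.3 in hippocampus western 1 to 5. The same 3 libraries were high as for Prox1. Of 12 pyramidal cell markers, 2 had an unadjusted p under 0.05, both higher (median 0.48): Camk2a, the α subunit of the calcium and calmodulin kinase of synapses, at a log2 difference of 1.23 (SE 0.56), and Iyd at 2.00 (SE 0.91). The labels overlapped for both. Camk2a was low in cerebellum western 3 and 4, at 490 and 1973 counts against 8276 to 12536 in the rest of that label. Iyd had 60 counts in hippocampus western 1 and 1 to 10 in every other library.

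Of 16 cerebellar granule cell markers, 8 had an unadjusted p under 0.05, all lower (median -2.06), and of 13 Purkinje cell markers tested 5, all lower (median -1.54), with no member free of overlap in either list. Without cerebellum western 3 these medians were -0.10 and 0.31, and with hippocampus western 4 also left out -0.37 and 0.06. The granule cell list summed to 5330 CPM in cerebellum western 3 and to 512 to 1630 in the other 4 libraries of that label, against 971 to 1873 in the hippocampus label. Its defining markers alone, Gabra6, Cbln3 and Fat2, summed to 1762 CPM in cerebellum western 3 and 157 in hippocampus western 4. They summed to 1.13 to 3.61 CPM in the rest of the cerebellum label and 1.32 to 5.00 in the rest of the hippocampus label. Outside cerebellum western 3 the whole-list sums thus came mostly from other members. Cbln1, a synaptic organizer between granule and Purkinje cells, stood at 814 CPM in cerebellum western 3 and 10.04 to 83.5 elsewhere. Of the 20 forebrain transcription factors, 17 had a positive difference and 0 an unadjusted p under 0.05 (median 0.75). Of 15 hindbrain and midbrain factors tested, 14 were negative and 3 had an unadjusted p under 0.05 (median -1.18): Barhl2, En2 and Zic4. The whole list summed to 22.4, 45.3, 450, 210 and 99.7 CPM in cerebellum western 1 to 5 and 53.6, 55.9, 5.67, 58.0 and 95.4 in hippocampus western 1 to 5. Cerebellum western 3 and 4 were thus the highest, and cerebellum western 1 and 2 lay within the range of the hippocampus label.

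Receptor and channel genes of neurons leaned to the hippocampus label, though not in all of its libraries. Potassium channel genes summed to 1633 and 1523 CPM in hippocampus western 1 and 5, and to 2198, 2326 and 2031 in hippocampus western 2, 3 and 4. The cerebellum label spanned 1538 to 1978 CPM. For sodium and calcium channel genes hippocampus western 1 and 5 (2572 and 2160 CPM) lay within the cerebellum label (2157 to 2696). Of 15 GABA-A receptor subunits, 5 had an unadjusted p under 0.05, all higher (median 0.52). Gabrb2, the β2 subunit found in the most common receptor form, stood at 4.65, 14.6, 4.37, 24.8 and 7.42 CPM in cerebellum western 1 to 5 and 21.3, 81.5, 67.9, 66.7 and 13.9 in hippocampus western 1 to 5. The log2 difference was 2.17 (SE 0.58, adjusted p = 0.135 by edgeR), and hippocampus western 1 and 5 overlapped the cerebellum label. Gabra4, the α4 subunit of extrasynaptic receptors of dentate granule cells and thalamus, stood at 43.1, 39.1, 13.5, 26.5 and 41.9 CPM in cerebellum western 1 to 5 and 108, 89.6, 84.1, 91.2 and 55.2 in hippocampus western 1 to 5, with no overlap. Of 22 voltage-gated potassium channel genes, 4 were higher and 1 lower at that level, with Kcnb2, a delayed rectifier, at 16.3 ± 6.50 against 6.59 ± 3.12 CPM (log2 difference 1.30, SE 0.34). Of 23 sodium and calcium channel genes, 4 were higher and 1 lower, and Cacna2d1, an auxiliary calcium channel subunit, was the 1 without overlap at 113 ± 39.0 against 47.5 ± 20.3 CPM. Gabra4 and Cacna2d1, 1 member of each list, are to be read against 2.24% of all genes with the hippocampus label above without overlap. Of 24 synaptic plasticity genes 6 were higher and 0 lower (median 0.42), and of 10 AMPA and NMDA receptor genes 4 were higher and 1 lower. The lower one was Grin2c, the NMDA receptor subunit of cerebellar granule cells, at 49.1, 39.7, 375, 34.5 and 45.2 CPM in cerebellum western 1 to 5 and 41.3, 25.5, 50.8, 65.5 and 29.9 in hippocampus western 1 to 5. Cerebellum western 3 was far above the rest.

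Genes of signalling and metabolism were counted in the same way. Of 22 Na,K-ATPase and Src signalling genes, 4 were higher and 2 lower at an unadjusted p under 0.05 (median 0.02). Atp1b1, the main β subunit of the pump, stood at 649, 1069, 591, 929 and 767 CPM in cerebellum western 1 to 5 and 1117, 1177, 1005, 1204 and 1030.3 in hippocampus western 1 to 5. The labels overlapped, with a log2 difference of 0.47 (SE 0.24, adjusted p = 0.231). Src itself averaged 115 ± 13.1 against 83.2 ± 20.8 CPM (log2 difference 0.46, SE 0.17, adjusted p = 0.150), and Fxyd2, a regulatory subunit, 2.79 ± 0.908 against 5.88 ± 4.15 CPM. Of 20 insulin and leptin signalling genes 4 were higher and 0 lower. Irs1, the insulin receptor substrate, averaged 4.49 ± 1.46 against 1.84 ± 1.28 CPM. Of 25 cholesterol genes 0 were higher and 4 lower, a share near that of all genes (13.6%). The labels did not overlap for 3 of the 25, all lower, against 2.04% of all genes: Mvk averaged 17.99 ± 1.57 against 23.4 ± 4.70 CPM, Pmvk 41.5 ± 12.5 against 62.8 ± 4.69 and Mvd 18.4 ± 3.66 against 29.5 ± 2.97. Of 21 amyloid and Alzheimer disease genes 4 were higher and 4 lower, with Adam10, the α-secretase, at 53.01 ± 13.3 against 31.3 ± 4.32 CPM and no overlap. Hlf, a clock-controlled transcription factor, averaged 163 ± 31.4 against 100.3 ± 19.7 CPM, also with no overlap. Adam10 and Hlf, 1 member of each list, are likewise to be read against 2.24% of all genes above without overlap.

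**Figure D3:**
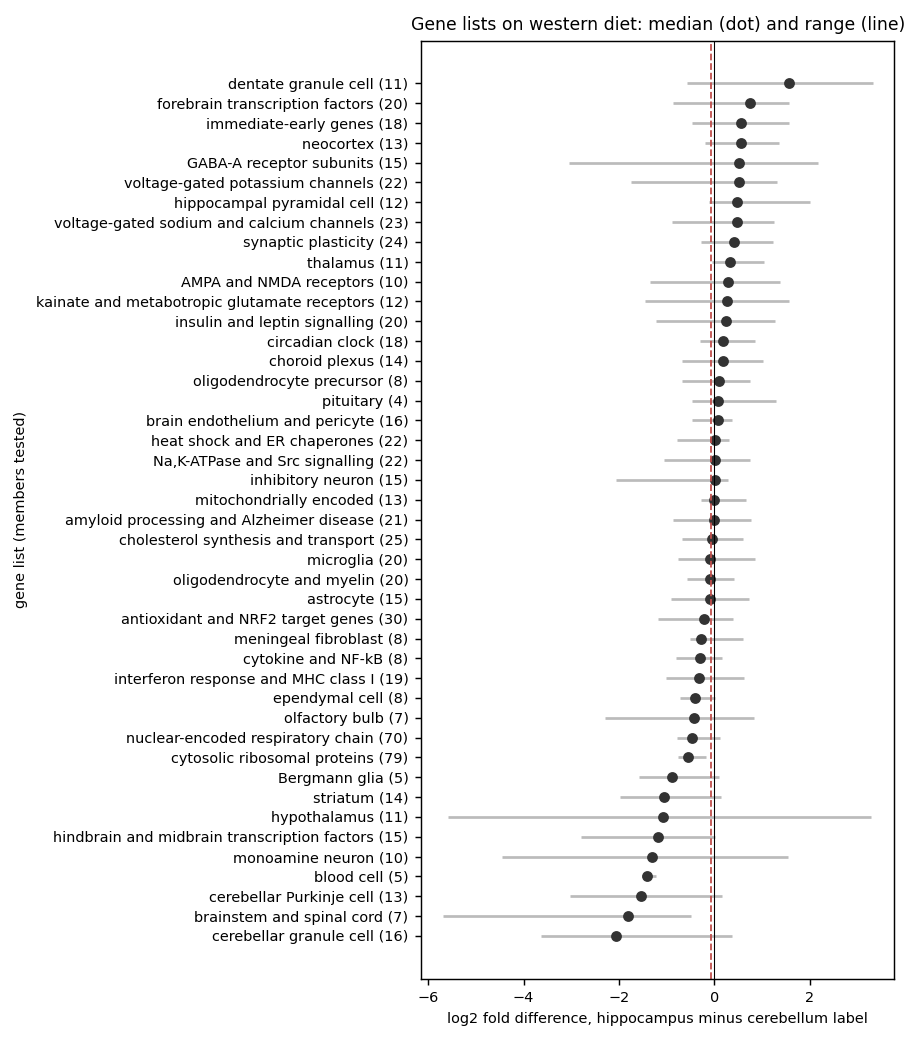
Median (dot) and range (line) of the log2 difference, hippocampus minus cerebellum label on western diet (x axis), for the members tested of each of 44 gene lists (y axis, number in brackets), with the median of all genes as a dashed line. Dentate granule cell genes lie farthest to the right at 1.56 and cerebellar granule cell genes farthest to the left at -2.06, with long ranges for the lists of single regions and short ones for ribosomal and respiratory genes.

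Ribosomal, respiratory chain and blood transcripts leaned to the cerebellum label as groups, without a member that passed the adjusted test. All 79 cytosolic ribosomal protein genes had a negative difference and 53 an unadjusted p under 0.05 (median -0.54), against 13.6% of all genes. Their summed level was 22794, 16954, 17787, 15521 and 20442 CPM in cerebellum western 1 to 5 and 15725, 9849, 11388, 10847 and 17596 CPM in hippocampus western 1 to 5. Hippocampus western 2, 3 and 4 were low, and hippocampus western 1 and 5 lay within the cerebellum label. Rpl29, of the large subunit, averaged 33.1 ± 7.35 against 50.6 ± 12.4 CPM (log2 difference -0.61, SE 0.21, adjusted p = 0.142 by edgeR). Ribosomal protein genes have many near-identical pseudogenes, and the sources used here do not give how reads shared between copies were counted. Of 70 nuclear-encoded respiratory chain genes, 47 were lower and 0 higher at an unadjusted p under 0.05 (median -0.46). Ndufv1, the flavoprotein that accepts electrons from NADH in complex I, stood at 218, 197, 227, 212 and 196 CPM in cerebellum western 1 to 5 and 169, 164, 153, 156 and 187 in hippocampus western 1 to 5, with no overlap. Of the 70, 3 were below without overlap, against 2.04% of all genes, and the others were Ndufv3 (76.8 ± 24.4 against 132 ± 19.9 CPM) and Cyc1, cytochrome c1 (145 ± 17.7 against 187 ± 22.7 CPM). The 13 mitochondrially encoded genes had 0 with an unadjusted p under 0.05 and a median of 0.00.

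The 5 blood cell markers all had an unadjusted p under 0.05 and lower values in the hippocampus label (median -1.41). Hba-a1, an α-globin, stood at 532, 377, 964, 899 and 302 CPM in cerebellum western 1 to 5 and 185, 210.2, 72.6, 295 and 376 in hippocampus western 1 to 5. It was high in cerebellum western 3 and 4. It shares reads with its near-identical copy Hba-a2, so the split between them is uncertain. Alas2, the first enzyme of heme synthesis in red cells, averaged 2.79 ± 1.36 against 8.06 ± 5.33 CPM. The summed level of the 5 genes was 992 to 3151 CPM in the cerebellum label and 240.1 to 1245 in the hippocampus label. The part of blood in the other differences was not tested.

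The differences also followed transcript length. Across 17065 genes (genes are no independent replicates) the log2 difference correlated with log10 exon length at r = 0.36 and with GC content at r = -0.33, as a description of genes that share these 10 libraries. Its median was -0.35 in the quartile of shortest exon length (up to 2129 bases) and 0.18 in the longest (from 6342). Each library's long-minus-short value, the median log2 level of the longest quartile less that of the shortest, relative to all 42 libraries, was -0.15, 0.21, 0.07, 0.31 and 0.00 in cerebellum western 1 to 5 and 0.31, 0.92, 0.83, 0.77 and 0.16 in hippocampus western 1 to 5. The same 3 libraries that were low in ribosomal transcripts, hippocampus western 2, 3 and 4, were high in this value, and they were also the libraries with the highest Gabrb2 and Xkr4. With an offset for each library's trend with exon length and GC content, the median was -0.37 for the ribosomal and -0.31 for the respiratory genes, and 0 genes were called. RNA quality numbers were not used here, and the part of RNA quality in these values was not tested.

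**Figure D4:**
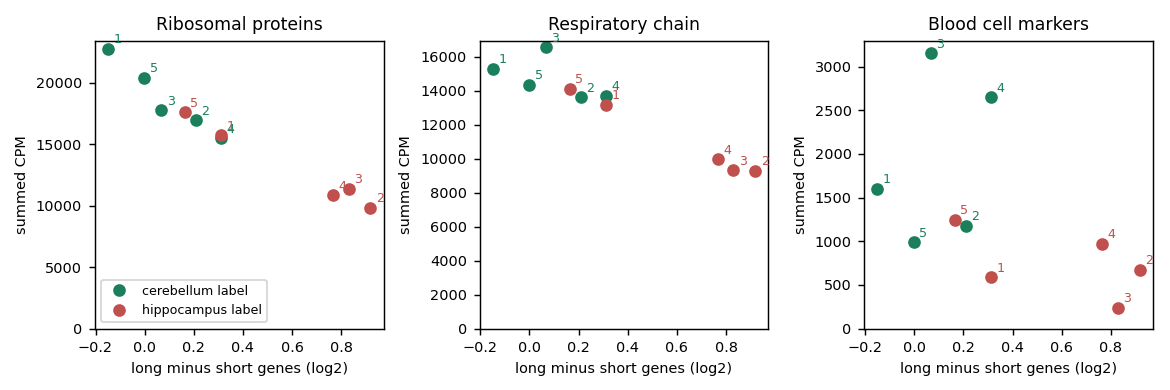
Summed CPM (y axes, from 0) of 79 ribosomal protein genes, 70 respiratory chain genes and 5 blood cell markers against the long-minus-short value of each library (x axes, log2), with 1 numbered point per library, green for the cerebellum and red for the hippocampus label. Hippocampus western 2, 3 and 4 lie apart at 0.77 to 0.92 and hold the lowest ribosomal and respiratory sums.

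The region labels were compared in the same fit in the other groups. On the control diet 376 genes were called (2.2%), 164 higher (0.96%) and 212 lower (1.24%) in the hippocampus label. On the control diet with NaKtide edgeR called 0 (0%), with 3617 (21.2%) at an unadjusted p under 0.05. On the western diet with NaKtide it called 299 (1.75%), 238 higher (1.39%) and 61 lower (0.357%). Gabra6 reached 20.3 CPM in 1 library labelled cerebellum on the control diet, 121 with NaKtide on that diet and 2.86 with NaKtide on the western diet, with medians of 0 to 0.277 in these groups, and at most 0.5 in any library labelled hippocampus of the other groups. Hippocampus western 4 was thus the highest library of that label for Gabra6.

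Whether the label difference itself depended on the diet was tested as the difference on the western diet minus that on the control diet. No gene passed (0 of 17088, 0%, by edgeR, smallest adjusted p 0.864), 907 genes (5.31%) had an unadjusted p under 0.05, and DESeq2 called 1. The 5 smallest p belonged to Sugt1, a co-chaperone of Hsp90 (0.55, SE 0.13), Mob4, a subunit of the STRIPAK phosphatase complex (0.76, SE 0.19), C87436 (-0.64, SE 0.16), Mbnl1, the muscleblind splicing factor (0.97, SE 0.25), and Rarg, a retinoic acid receptor (-0.91, SE 0.24). For Mob4 the means on the western diet were nearly equal, at 53.9 ± 11.8 against 53.2 ± 3.63 CPM, and those on the control diet were 47.3 ± 4.51 against 79.04 ± 13.2 CPM. Without the 4 libraries over 1 CPM of Xist, a choice made after seeing the data, Mbnl1 was the 1 gene called, at 1.30 (adjusted p = 0.0411).

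The label difference differed between the western diet without and with NaKtide for 1510 of 17088 genes (8.84%) by edgeR, 759 (4.44%) more positive and 751 (4.39%) more negative without NaKtide. With offsets for exon length and GC content, added once the data had been seen, it was 669 genes, 156 more positive and 513 more negative. This comparison shares the western diet libraries with the one above. Tmem30a, the subunit that escorts phospholipid flippases (chr9:79768943-79793507), stood at 106, 136, 106, 160.3 and 143 CPM in cerebellum western 1 to 5 and 199.6, 282, 262, 279.7 and 181 in hippocampus western 1 to 5. On the western diet with NaKtide its means were 89.8 ± 18.1 against 184 ± 64.05 CPM (n = 6 and 5). The difference of the label differences was 1.92, SE 0.36, adjusted p = 0.0140. Mosmo, a modulator of the hedgehog receptor Smoothened, averaged 34.5 ± 5.70 against 17.8 ± 6.45 CPM without and 13.5 ± 2.41 against 25.4 ± 8.67 CPM with NaKtide, a difference of 1.87, SE 0.33, adjusted p = 0.0140. Itgb8, an integrin subunit that activates TGF-β, averaged 25.8 ± 9.12 against 9.06 ± 5.01 and 6.93 ± 1.97 against 15.04 ± 7.17 CPM (2.63, SE 0.52, adjusted p = 0.0140). Larp4, an RNA-binding protein of mRNA poly(A) tails, averaged 25.3 ± 3.30 against 15.1 ± 3.15 and 10.6 ± 3.0 against 18.3 ± 5.60 CPM (1.53, SE 0.30, adjusted p = 0.0140). Miip, an inhibitor of cell migration, went the other way, with 9.32 ± 2.53 against 17.3 ± 6.70 CPM without and 29.1 ± 10.7 against 10.2 ± 2.33 CPM with NaKtide (-2.41, SE 0.46, adjusted p = 0.0140). In all 5 genes the label with the higher mean switched between the 2 arms, and the adjusted p was 0.0140 each.

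**Figure D5:**
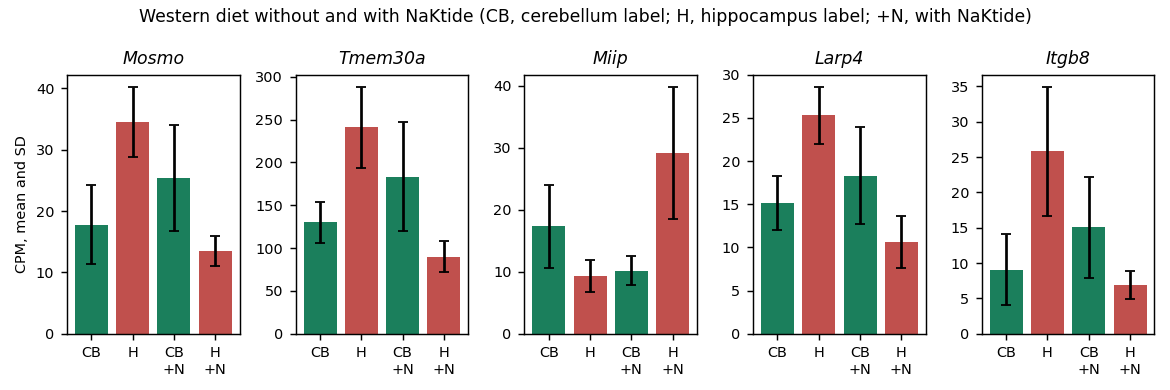
Mean CPM and SD (bars from 0 and error bars) of Mosmo, Tmem30a, Miip, Larp4 and Itgb8 in libraries labelled cerebellum (CB, green) and hippocampus (H, red) on the western diet without and with NaKtide (+N), with 5, 5, 5 and 6 libraries from left to right. The red bar is the taller one without NaKtide and the shorter one with it for 4 genes, and the reverse for Miip.

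Among the lists, calls in this second difference are read against 4.44% and 4.39% of all genes. Of 15 GABA-A receptor subunits 3 were more positive without NaKtide, among them Gabrb2 (3.15, SE 0.80, adjusted p = 0.0172). Of 11 dentate markers 2 were, C1ql3 (2.76, SE 0.87, adjusted p = 0.0430) and Stxbp6 (1.79, SE 0.43, adjusted p = 0.0146). Of 20 insulin and leptin genes 3 were more positive, among them Irs1 and Gsk3b. Of 21 amyloid and Alzheimer disease genes 4 were more positive (App, Bace1, Adam10 and Gsk3b) and 1 more negative (Trem2). Of 20 microglia markers 4 were more negative: Aif1, a calcium-binding protein (-1.41, SE 0.36, adjusted p = 0.0176), Trem2, a lipid receptor (-1.16, SE 0.33, adjusted p = 0.0283), its adaptor Tyrobp (-1.15, SE 0.37, adjusted p = 0.0474) and Laptm5 (-0.86, SE 0.24, adjusted p = 0.0277). Of 22 Na,K-ATPase and Src signalling genes 1 was called, Atp1b1 (1.11, SE 0.33, adjusted p = 0.0321), with 1107 ± 87.6 against 801 ± 198 CPM without and 575 ± 50.9 against 897 ± 305 CPM with NaKtide. Of 22 heat shock and ER chaperone genes 3 were more positive (Hspa4, Dnaja1 and Canx, which encode chaperones) and 2 more negative (the stress response transcription factors Ddit3 and Atf4). Of 25 cholesterol genes 2 were more positive, the synthesis enzymes Hsd17b7 and Sc5d, and of 19 interferon and MHC class I genes 2 were more negative, Irf9 and Psmb8. Of 22 potassium channel genes 2 were more positive. In each of 4 more lists 1 member was more positive: kainate and metabotropic glutamate receptors (of 12), sodium and calcium channels (of 23), synaptic plasticity (of 24) and the clock (of 18). AMPA and NMDA receptors had 1 in each direction (of 10), and antioxidant genes had 1 more negative (of 30). No ribosomal (0 of 79) and no respiratory chain gene (0 of 70) passed, and the remaining lists had 0 called as well.

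The number of these calls moved with the libraries used. Xist stood at 162 CPM in hippocampus western NaKtide 6, with 2 counts in Y chromosome genes. The 10 western diet libraries without NaKtide had at most 0.134 CPM of Xist and 252 to 535 counts in Y chromosome genes. Without the 4 libraries over 1 CPM of Xist, a choice made after seeing the data, edgeR called 1324 genes. Without both libraries over 10 CPM of Gabra6 (cerebellum western 3 and hippocampus western 4), an alternative added once the data had been seen, edgeR called 0 genes (3634 at an unadjusted p under 0.05), and the 5 genes named above had adjusted p = 0.0667 with the same signs. Leaving out 1 library at a time moved the count by over 1.5 times for 12 of 21 libraries: 691, 636, 686, 796, 780 and 2278 calls without cerebellum western 1, cerebellum western 3, hippocampus western 4, hippocampus western 2, hippocampus western 3 and hippocampus western 5. There were 575, 4089, 416, 730, 794 and 805 calls without cerebellum western NaKtide 1, 3, 4 and 5 and hippocampus western NaKtide 1 and 5.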

How the data were processed

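RNA sequencing of 42 mouse brain libraries was used, with 10 of them in the main comparison. Per the submitters' processing notes, Trimmomatic 0.38, HISAT2 2.1.0, DESeq2 1.20.0 and GRCm38 were used, and the read counter is not given in the sources used here. Whole counts of 54232 Ensembl genes make up the deposited raw count table. The authors also deposited a signal table of normalized counts, in which each raw count was divided by a size factor of its library (relative spread 6.7e-16), and an FPKM table made from it with 1 factor per gene (relative spread 9.4e-14), as the values showed. Only raw counts were tested.

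Genes were fitted over all 42 libraries in 8 groups by edgeR 4.0.16 in R 4.3.3 (TMM factors, filterByExpr, quasi-likelihood F test, 34 residual degrees of freedom), and an adjusted p (Benjamini-Hochberg) under 0.05 was a call. Log2 differences are edgeR's, their SE is the difference divided by the root of F, and levels are CPM with TMM factors. Symbols, coordinates and exon lengths came from GENCODE M21, which held 54165 of the genes. Library measures were compared by an exact permutation test. The genes named were the 10 smallest p (a symbol, at least 1 CPM on average), since none passed, the markers that define each list, and the 5 smallest p of each difference of differences. Further members were named from the 44 lists as examples, after their values were seen. Some genes of these lists are not reported here. The members and lists were chosen with earlier results of these data known. The main fit had no replicate block, since no label ties a number to an animal. Same-numbered libraries correlated between -0.27 and 0.14. The libraries differed in the regional transcripts they held, so these values cannot decide whether a number marks 1 animal. The alternatives were DESeq2 size factors, DESeq2 1.42.0, all genes with a count, the compared groups alone with and without the replicate block, 2 surrogate variables (sva 3.50.0), offsets for exon length and GC content (natural splines), and leaving out each library. The fit was tested on simulated data.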

Additional observations from a re-analysis of the deposited data

Results flagged for a closer look

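In groups of 5 libraries, the highest or lowest value was compared with the range of its group by Dixon's ratio, whose 95% critical value for 5 is 0.710. The ratio was taken on log2(CPM + 1) for genes and list sums and on the plain values for library measures. Levels below are given as CPM. Of 158 such tests 23 exceeded it, and 11 of the 23 concerned cerebellum western 3. The tests share libraries and markers of the same cell types, so the count cannot be set against a chance rate of 1 in 20. That library stood alone within its label at 211 CPM of Gabra6, 994 of Cbln3, 557 of Fat2, 634 of Pcp2, 266 of Ppp1r17 and 765 of Car8, at 4666 CPM over the Purkinje cell list, and at 8.05 CPM of Stxbp6, 32.5 of Wdr4, 59.5 of Sugt1 and 18.7 of Rarg. Hippocampus western 4 stood alone within its label for the same 6 cerebellar markers, at 23.6 CPM of Gabra6, 92.9 of Cbln3, 40.2 of Fat2, 71.3 of Pcp2, 29.5 of Ppp1r17 and 105 of Car8.

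The striatal list summed to 3672 CPM in cerebellum western 1. The choroid plexus list summed to 3314 CPM in hippocampus western 1 and to 2400.4 CPM in cerebellum western 5, against at most 394 in the other 8 libraries. Forebrain transcription factors summed to 581 CPM in hippocampus western 5, the lowest of its label, and hindbrain and midbrain factors to 5.67 CPM in hippocampus western 3. Larp4 was highest within its label in hippocampus western 2, at 31.2 CPM.

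The label difference differed between the western diet without and with NaKtide by a test of the difference itself, for 1510 genes by edgeR. The values were 1.87 for Mosmo, 1.92 for Tmem30a, -2.41 for Miip, 1.53 for Larp4 and 2.63 for Itgb8 on the log2 scale, with adjusted p = 0.0140 each. In the other group, NaKtide came with a transgene and doxycycline, which cannot be told apart from it.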

How the results depend on the processing

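On the western diet edgeR called 0 genes with DESeq2 size factors, no low-count filter, the compared groups alone, the replicate block (0 calls, 3451 genes at an unadjusted p under 0.05), 2 surrogate variables, length and GC offsets, or without both libraries over 10 CPM of Gabra6 (1504 at an unadjusted p under 0.05). DESeq2 called 165 genes, 124 higher and 41 lower. Leaving out 1 library gave 0 to 17 calls, 0 to 15 higher and 0 to 2 lower. The replicate block was fitted for this comparison alone, which had no call to lose, and not for the differences of the label differences. In the compared groups alone, the granule cell median was -1.86 without the block and -0.52 with it. The cause of the differences below was not tested.

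Cerebellar markers reversed with 2 surrogate variables, to 4.09 for Gabra6, 1.92 for Cbln3, 1.94 for Fat2, 2.95 for Pcp2, 1.03 for Ppp1r17 and 0.049 for Car8. With the replicate block Cbln3 was at 0.75 and Car8 at 0.22. Over single omissions they ranged from -6.85 (without hippocampus western 4) to 5.39 (without cerebellum western 3) for Gabra6, and, with the same 2 libraries at the ends, from -6.39 to 4.34 for Cbln3, -6.88 to 3.38 for Fat2, -6.38 to 4.52 for Pcp2, -5.86 to 2.71 for Ppp1r17 and -4.42 to 2.09 for Car8. Without both Gabra6 libraries the sign turned for Cbln3 (1.24), Fat2 (0.17), Pcp2 (1.19), Car8 (0.23), Fibcd1 (-0.072) and Spink8 (-0.27), and not for Ppp1r17. Gabra6 itself was not tested in that fit.

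For the western against the control diet, DESeq2 called 1 gene, higher, as did edgeR without the 4 libraries with Xist. For the arms without and with NaKtide, edgeR's 1510 calls became 794 without a filter (471 higher, 323 lower), 669 with length and GC offsets (156 higher), 460 higher with 2 surrogate variables, and 0 without both Gabra6 libraries (0 higher, 0 lower), and DESeq2 called 1215 higher. Single omissions gave 416 to 4089 calls, 164 to 1903 higher and 252 to 2186 lower. For library measures they gave -82.4 to 173.6 for the difference in genes at 10 counts or more and -0.695 to 0.043 for mitochondrial percent.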
